A study of Mus musculus with 8 samples.

Results

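The genes of oxidative phosphorylation were followed on 8 microarrays of mouse splenic T cells, 1 array for each genotype and time. Genes were taken when a probe set carried a single symbol that begins with Nduf, Uqcr, Atp5 or Cox followed by a digit of the complex IV subunit series, or that is Sdha, Sdhb, Sdhc or Sdhd. The rule found 84 genes on 156 probe sets, of 12394 genes with a probe set of their own on the array. Each gene is represented by the probe set with the highest mean log2 signal. Of the 84 genes, 81 passed a filter that asked for a signal above a floor of 141.88 on at least 2 arrays, against 8457 genes of the whole array. Among these 81 are 72 subunits that most tissues express. They number 34 for complex I (Ndufa4 included), 4 for complex II, 8 for complex III, 9 for complex IV and 17 for complex V. The other 9 are 5 complex I assembly factors, 3 tissue-restricted isoforms of complex IV subunits, and Cox7a2l. The last is described as joining complexes into supercomplexes, a role not examined here. With Cox7a2l and the assembly factors, 6 of the genes are not subunits. The 3 genes that did not pass were Cox4i2, Cox7a1 and Cox8b, isoforms known from lung, heart and muscle.

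The respiratory chain of the inner mitochondrial membrane passes electrons from NADH through complex I, and from succinate through complex II, to ubiquinone, then through complex III and cytochrome c to complex IV, which reduces oxygen. Complexes I, III and IV pump protons as electrons pass, and complex V, the ATP synthase, uses the returning protons to make ATP. Some subunits are encoded in mitochondrial DNA, and those measured here are nuclear genes only. Resting T cells are known to depend largely on this pathway, and activated T cells raise glycolysis while they also build mitochondria.

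The arrays labelled as knockout (KO-labelled) came from mice lacking Gfi1 and those labelled as wild type (WT-labelled) from their wild-type counterparts, both C57Bl/6. Gfi1 is a transcriptional repressor of blood cell development. T cells had been taken from spleen with a magnetic pan-T-cell kit and cultured with antibodies to CD3 and CD28 at 2 µg/ml for 4, 8 or 24 h, and the 0 h cells were untreated. Age, sex, the allele and the number of animals were not given in the sources used here. All arrays of a genotype carry 1 source number, so animal and genotype cannot be told apart. With no array of cells cultured without antibody, antibody and time in culture cannot be told apart either.

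The deposited signals had the same trimmed mean on every array, between 1000.4 and 1000.5, while array medians ran between 224.3 and 305.0. The number of arrays limits the precision. Gfi1 gave signals of 2316, 5979, 6459 and 9885 at 0, 4, 8 and 24 h in the KO-labelled arrays, against 881.5, 6359, 5259 and 3966 in the WT-labelled arrays. The targeted gene was thus not lower in the KO-labelled array at 0, 8 or 24 h, and the position of its probe set relative to the deletion was not stated there, so it does not check the labels. Markers of other cells also differed. All 13 T-cell markers were at least 1.5-fold lower in the KO-labelled array at 0 h, and their summed signal ran between 25519 and 62745 in KO-labelled arrays, against 67654 to 96110 in WT-labelled arrays. Their median log2 difference, KO-labelled minus WT-labelled, was -1.69, -1.67, -1.64 and -0.25 at 0, 4, 8 and 24 h. The sums at 24 h were 62745 in the KO-labelled and 69284 in the WT-labelled array. Of 13 granulocyte markers, 10 were at least 2-fold higher in the KO-labelled array at 0, 4 and 8 h, with summed signals of 6688 to 177056 in KO-labelled arrays, against 1006 to 16918 in WT-labelled arrays. The sums of 15 monocyte markers ran between 17962 and 63975 in KO-labelled arrays, against 1697 to 10510 in WT-labelled arrays. At 24 h, 3 granulocyte markers were at the floor in the KO-labelled array, against 12 of 13 in the WT-labelled array. The part of these cells in the results that follow was not tested, and in bulk RNA fewer cells of a type and less RNA per cell cannot be told apart.

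Promoter sequences are shown because these genes are textbook targets of a small set of transcription factors, NRF1, GABP and YY1. RefSeq promoter windows (build GRCm38.p6, 250 bases before to 50 bases after a gene's start) existed for 70 of the 84 genes, 75 windows in all. Then 3 letter patterns were searched on both strands, CCGGAAG for GABP, AANATGGC for YY1 and, for NRF1, the palindrome that stands first in capitals in the Atp5k window. The NRF1 letters were in 8% of the member windows and in 0.971% of all 32851 windows of the table (1.33% of 21263 windows of protein-coding genes). For GABP the shares were 24% of member windows, 8.86% of all windows and 11.6% of those of protein-coding genes. For YY1 they were 21.3%, 6.05% and 6.37% in the same order. At least 1 of the 3 patterns was in 36 of 75 member windows (48%), against 14.8% of all windows and 17.8% of those of protein-coding genes. In 0 member windows did 2 different patterns overlap. The 5 windows below are written 5′ to 3′ on the gene's strand, with matches in capitals. They were picked to show each pattern and the gene pair Cox6b1 and Cox6b2.
Atp5k, membrane subunit e of complex V, chr5:108434350-108434649 on the minus strand: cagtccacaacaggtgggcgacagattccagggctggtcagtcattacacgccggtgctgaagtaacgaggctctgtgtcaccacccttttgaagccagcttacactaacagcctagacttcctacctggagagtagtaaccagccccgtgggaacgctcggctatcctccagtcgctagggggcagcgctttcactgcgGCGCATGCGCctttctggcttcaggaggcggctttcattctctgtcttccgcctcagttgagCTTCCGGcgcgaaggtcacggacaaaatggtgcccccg
Ndufaf4, complex I assembly factor, chr4:24897833-24898132 on the plus strand: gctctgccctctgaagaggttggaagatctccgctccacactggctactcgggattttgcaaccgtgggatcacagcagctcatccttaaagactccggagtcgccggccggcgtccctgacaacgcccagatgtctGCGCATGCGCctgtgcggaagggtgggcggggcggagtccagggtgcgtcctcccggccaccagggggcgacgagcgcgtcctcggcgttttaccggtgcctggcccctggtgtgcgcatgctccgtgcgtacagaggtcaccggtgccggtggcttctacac
Ndufc1, complex I accessory subunit, chr3:51408906-51409205 on the minus strand: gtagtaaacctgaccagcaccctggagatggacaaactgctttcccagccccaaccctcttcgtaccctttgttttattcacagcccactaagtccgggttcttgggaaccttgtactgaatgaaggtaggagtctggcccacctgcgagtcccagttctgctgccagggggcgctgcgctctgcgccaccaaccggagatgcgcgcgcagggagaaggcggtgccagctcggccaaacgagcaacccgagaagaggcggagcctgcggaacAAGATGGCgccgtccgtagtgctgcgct
Cox6b1, ubiquitous complex IV subunit, chr7:30626065-30626364 on the minus strand: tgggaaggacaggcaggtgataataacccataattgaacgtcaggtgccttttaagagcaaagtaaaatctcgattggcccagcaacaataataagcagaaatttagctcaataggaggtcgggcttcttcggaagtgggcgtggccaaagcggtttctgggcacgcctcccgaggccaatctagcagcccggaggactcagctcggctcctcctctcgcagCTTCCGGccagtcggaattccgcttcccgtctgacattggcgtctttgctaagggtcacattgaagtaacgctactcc
Cox6b2, testis isoform of the same subunit, chr7:4753045-4753344 on the minus strand: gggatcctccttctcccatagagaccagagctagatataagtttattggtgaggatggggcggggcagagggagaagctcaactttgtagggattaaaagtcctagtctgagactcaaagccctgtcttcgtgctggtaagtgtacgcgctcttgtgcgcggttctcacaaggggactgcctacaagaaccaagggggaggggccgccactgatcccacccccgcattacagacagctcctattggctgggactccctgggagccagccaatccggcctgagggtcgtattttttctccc
Atp5k holds an NRF1 and a GABP match, Ndufaf4 an NRF1 match, Ndufc1 a YY1 match and Cox6b1 a GABP match, while the Cox6b2 window holds none of these letters. A match describes the letters and is no evidence of binding. The 36 tested genes with a match had a median knockout-minus-wild-type difference of 0.34 (log2) at 4 h, against 0.36 for the 32 tested genes with a window and no match.

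Over the 8 arrays the 81 genes varied less than all tested genes, and in the WT-labelled series most of them were lower at 4 h and higher again at 24 h. The range of log2 signal over the 8 arrays had a median of 0.84 among the 81 genes, against 1.20 among all tested genes, and it was under 1 for 67.9% of them, against 36.3% of all tested genes. This range covers genotype as well as time. The 81 genes were also brighter, with a median mean log2 signal of 12.57, against 9.66 for all tested genes. The ranges were not matched for signal. In the KO-labelled series, 48 of 81 genes were lower at 4 h than at 0 h (54.6% of all tested genes), with a median log2 change of -0.08. In the WT-labelled series, 68 of 81 were lower (55.9% of all tested genes), with a median change of -0.37, while the median of all tested genes was -0.06 in KO-labelled and -0.10 in WT-labelled arrays. Between 8 and 24 h, 65 of 81 genes were higher at 24 h in KO-labelled arrays (52% of all tested genes), median 0.20, against 73 of 81 in WT-labelled arrays (44.3% of all tested genes), median 0.43. A difference of at least 1.5-fold in that interval was found for 7 genes in KO-labelled arrays (16.3% of all tested genes) and for 25 genes in WT-labelled arrays (14%). Signals at both 4 and 8 h lay below those of both 0 and 24 h for 32 genes in the KO-labelled series (19.5% of all tested genes) and for 50 genes in the WT-labelled series (20.9%). These counts share arrays, since every change within a series uses the same 0 h or 8 h array.

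**Figure D1:**
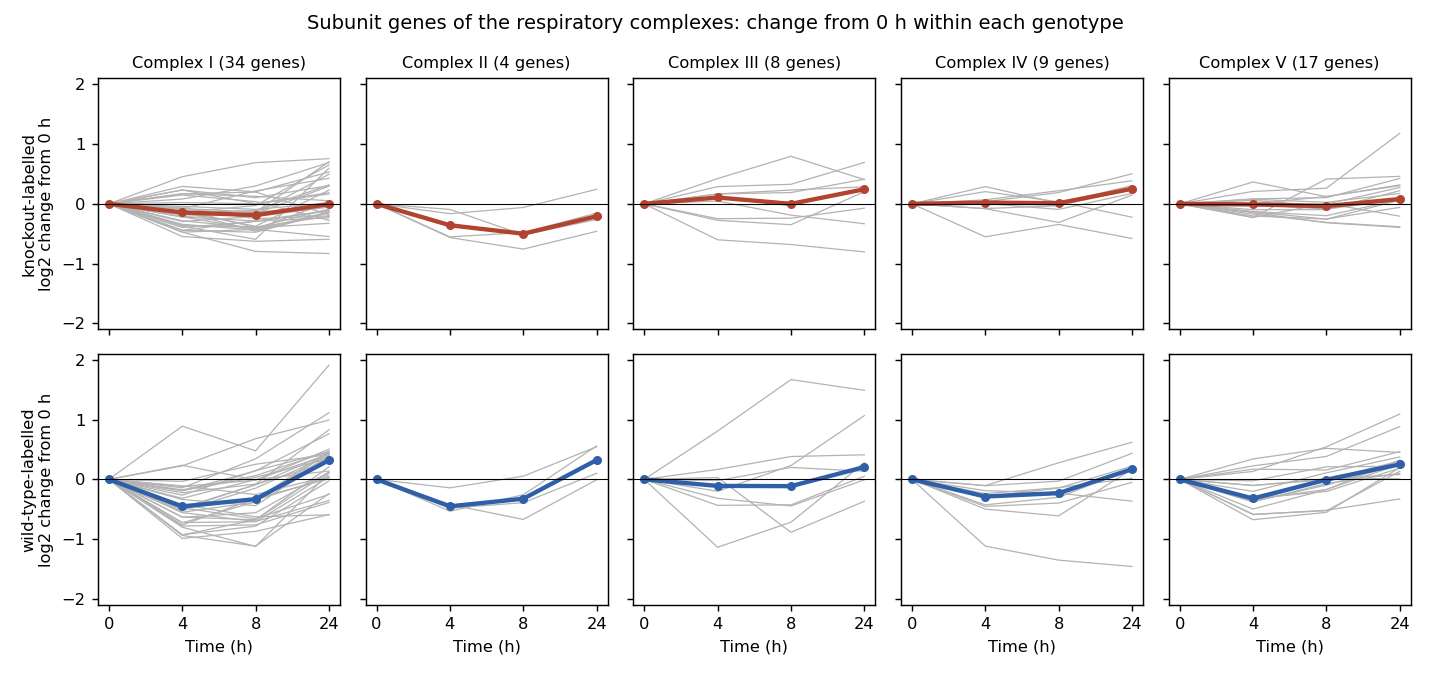
Log2 change from 0 h (vertical axis) against time in hours (horizontal axis) for the 72 ubiquitous subunit genes, by complex in columns, with KO-labelled arrays above and WT-labelled arrays below. Thin lines are genes, thick lines are medians; the complex I median at 4 h is -0.14 in KO-labelled and -0.45 in WT-labelled arrays.

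The size of the early dip depended on how the arrays were scaled. When every array was divided by its own median, the 4 h change had a median of 0.04 in KO-labelled and -0.12 in WT-labelled arrays, and the 8 h change 0.12 in KO-labelled and 0.08 in WT-labelled arrays. The median of all tested genes on that scale was 0.00 at 4 h in KO-labelled and 0.03 in WT-labelled arrays, and 0.00 at 8 h in KO-labelled and 0.13 in WT-labelled arrays. After quantile normalization the dip was deeper, with medians of -0.14 in KO-labelled and -0.45 in WT-labelled arrays at 4 h, and of -0.22 in KO-labelled and -0.31 in WT-labelled arrays at 8 h. Relative to the median of all tested genes, the 4 h change as deposited, after quantile normalization and after division by the median was -0.02, -0.12 and 0.04 in KO-labelled arrays, against -0.27, -0.44 and -0.15 in WT-labelled arrays. The members were thus below all tested genes at 4 h in the WT-labelled series on each of these 3 scales, and in the KO-labelled series the sign turned.

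Signals at both 4 and 8 h were below both 0 and 24 h, after division by the array median, for 17 genes in KO-labelled arrays (13.1% of all tested genes) and 34 in WT-labelled arrays (18.2%). After quantile normalization there were 32 such genes in KO-labelled arrays (17.8%) and 56 in WT-labelled arrays (20.7%). The higher signal at 24 h than at 8 h was found, after division by the median, for 59 genes in KO-labelled arrays (47.7% of all tested genes) and 79 in WT-labelled arrays (52.8%). After quantile normalization it was found for 62 genes in KO-labelled arrays (50.5%) and 73 in WT-labelled arrays (47.9%).

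Changes common to both genotypes were tested with limma across all genes, in which the change shared by the genotypes is set against the difference between their responses. With 3 residual degrees of freedom, such a p-value carries no spread between animals or cultures. Of the 81 genes, 0 rose and 1 fell at 4 h relative to 0 h (0.804% and 0.627% of all tested genes rose and fell), at limma adjusted p under 0.05. At 8 h 0 rose and 1 fell (1.18% and 1.25% of all tested genes), and at 24 h 0 rose and 1 fell (1.49% and 2.49%). At an unadjusted limma p under 0.05, the 4 h test gave 1 higher gene (5.51% of all tested genes) and 5 lower ones (8.87%), and the 8 h test gave 2 higher genes (7.27%) and 10 lower ones (12.9%). At the same unadjusted threshold 13 of the 81 genes were higher and 2 lower at 24 h than at 0 h, where the shares of all tested genes were 7.67% and 14.2%. The change between 8 and 24 h gave 0 calls in limma among the 81 genes and 0 among all 8457 genes, and at unadjusted p under 0.05 it gave 8 genes higher and 0 lower, where the shares of all tested genes were 4.43% and 4.61%.

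The gene that fell at each time was Cox6b2, the testis isoform of a complex IV subunit. Its signals were 1797, 274.9, 181.8 and 392.2 at 0, 4, 8 and 24 h in the KO-labelled arrays, against 1196, 161, 95.2 and 190.5 in the WT-labelled arrays, where the 8 h value is below the floor and was set to it. Both 0 h arrays lay above all 6 later arrays. Its log2 change was -2.80 at 4 h (limma SE 0.31, adjusted p = 0.0167), -3.19 at 8 h (adjusted p = 0.0125) and -2.42 at 24 h (SE 0.31, adjusted p = 0.0182). Leaving out any single array of 0, 4 or 8 h, of either label, ended the call at all 3 times, with a limma adjusted p between 0.077 and 0.382, and leaving out either 24 h array did not. Without the genotype term the adjusted p was 0.0811, 0.0495 and 0.0913 at 4, 8 and 24 h, and with no filter on low signals it was 0.166, 0.124 and 0.112 at 4, 8 and 24 h. Markers of several other cells fell in the same tests. The 6 tested erythroid markers had a median change of -3.24, -3.02 and -3.37 at 4, 8 and 24 h, and 3, 3 and 5 of them fell. Klf1, an erythroid transcription factor, fell by 3.44 on the log2 scale at 4 h (SE 0.38, limma adjusted p = 0.0166). The summed erythroid signal was 25318 at 0 h and at most 2042 later in KO-labelled arrays, against 21235 at 0 h and at most 2532 later in WT-labelled arrays, with Alas2 and Hba-a1 not passing the filter. The 6 tested B-cell markers had median changes of -0.89, -0.98 and -2.09 at 4, 8 and 24 h, and 1, 2 and 4 of them fell. Their summed signal was 4135 at 0 h and at most 2119 later in KO-labelled arrays, against 5507 at 0 h and at most 3096 later in WT-labelled arrays. Of the 15 monocyte markers 1, 2 and 5 fell at 4, 8 and 24 h, and of the 13 granulocyte markers 0, 0 and 8 fell, with median changes of -0.66, -0.79 and -1.59 for monocyte and of -0.13, -0.97 and -3.30 for granulocyte markers. The part of these cells in the Cox6b2 change was not tested.

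Its ubiquitous counterpart Cox6b1 gave 14274, 14484, 14588 and 16998 in KO-labelled arrays over the 4 times, against 14156, 10532, 11493 and 16066 in WT-labelled arrays. The muscle isoform Cox6a2 gave 98.4, 315.1, 339.5 and 346.3 in the KO-labelled series, against 86.7, 307, 180.8 and 491.9 in the WT-labelled series, with both 0 h arrays under the floor. Signals under the floor were set to it, so its change at 24 h is a bound, at least 2.91-fold higher than at 0 h, with a limma adjusted p of 0.0761 that did not pass. Cox8c, another testis isoform, gave signals of 208.8, 288, 396.2 and 481.7 in the KO-labelled arrays at 0, 4, 8 and 24 h, against 336.2, 423.2, 529.5 and 391.3 in the WT-labelled arrays, and its 24 h change was 0.71 (SE 0.35, limma adjusted p = 0.303). Other genes close to the threshold were Ndufa12, an accessory subunit of complex I, at 0.84 (SE 0.21, adjusted p = 0.0834) at 24 h, and Uqcrq, a small subunit of complex III, at 1.23 (adjusted p = 0.0949) at 8 h in limma. Probe sets of both genes disagreed. The 4 tested for Ndufa12 gave common changes of -0.55 to 0.40 between 8 and 24 h. The 2 tested for Uqcrq gave 0.09 to 0.62 at 4 h relative to 0 h.

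Between genotypes, the subunit genes stood a little higher in the KO-labelled array at 4 h and a little lower at 24 h. With 1 array for each, there is no replicate check and no p-value, and differences are given by size. The median log2 difference, KO-labelled minus WT-labelled, was 0.06, 0.33, 0.14 and -0.11 at 0, 4, 8 and 24 h, against 0.00, 0.00, -0.08 and 0.00 for all tested genes. At 4 h the middle of the member distribution, between its quartiles, ran from 0.07 to 0.57, against -0.43 to 0.44 for all tested genes. Signals were higher in the KO-labelled array for 47, 63, 58 and 29 of the 81 genes at 0, 4, 8 and 24 h, where the shares of all tested genes were 45.2%, 45.6%, 40.7% and 48.5%. A gene at the floor in both arrays of a pair counts as not higher.

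At 0 h, 7 genes exceeded 1.5-fold in the KO-labelled direction (17.4% of all tested genes) and 4 were lower (17%). At 4 h, 19 were higher (20.6%) and 4 lower (17.5%), so the share of higher members, 19 of 81, was near the background. At 8 h, 9 were higher (18.2%) and 0 lower (20.6%), and at 24 h 3 were higher (18.3%) and 4 lower (15%). No gene differed by at least 1.5-fold in one direction at all 4 times (3.61% of all tested genes higher, 1.09% lower). Any difference of the same sign at all 4 times was found for 13 genes higher in KO-labelled arrays (12.9%) and 6 lower (14.3%). At 2-fold, 1 gene was higher (8.08% of all tested genes) and 2 were lower (6.75%) at 0 h, 3 higher (11.8%) and 1 lower (6.56%) at 4 h, 1 higher (10.7%) and 0 lower (6.66%) at 8 h, and 1 higher (9.18%) and 0 lower (5.06%) at 24 h. The differences at 4 times use 8 different arrays, but the WT-labelled 4 h array enters both the 4 h difference and the dip of that series.

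Scaling moved the 24 h difference most. After division by the array median, the member medians were 0.04, 0.19, 0.07 and -0.39 at 0, 4, 8 and 24 h, against 0.00, -0.11, -0.16 and -0.19 for all tested genes. On that scale 17 genes were at least 1.5-fold lower at 24 h (27.3% of all tested genes) and 2 were higher (12.6%), so that the share of lower members, 17 of 81, did not exceed the background. At 4 h, 11 genes were at least 1.5-fold higher on that scale (17% of all tested genes) and 6 lower (23.6%), against 22 higher (19.2%) and 5 lower (19.2%) after quantile normalization. Relative to the median of all tested genes, the members stood at 0.33, 0.42 and 0.31 at 4 h and at -0.11, -0.12 and -0.20 at 24 h as deposited, after quantile normalization and after division by the median.

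**Figure D2:**
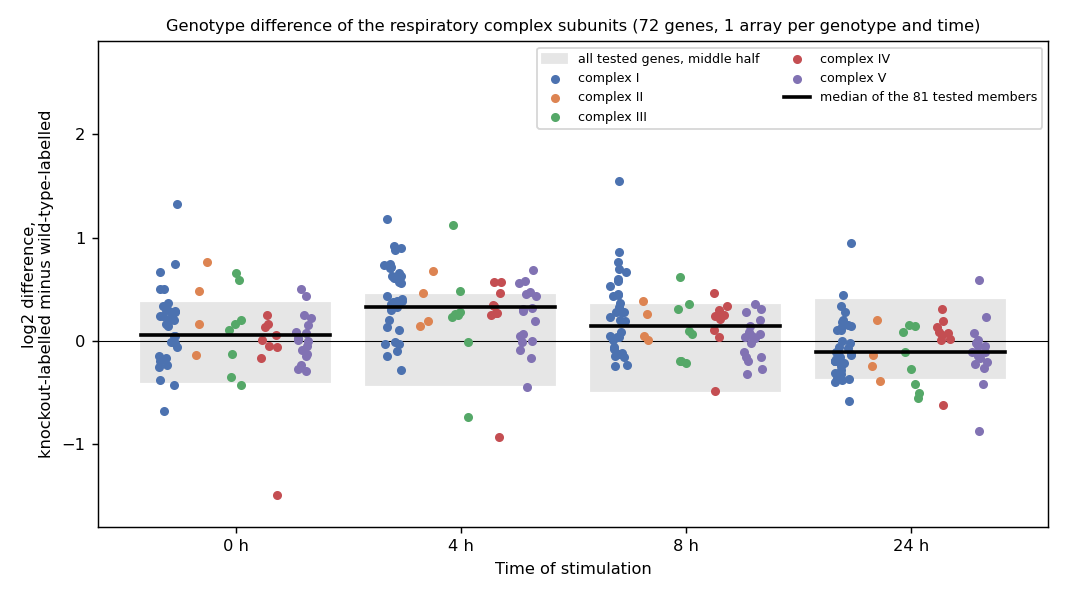
Log2 difference, KO-labelled minus WT-labelled (vertical axis), at each time of stimulation for the 72 ubiquitous subunit genes, coloured by complex. Black bars are the medians of the 81 tested genes (0.06, 0.33, 0.14 and -0.11) and grey boxes run between the quartiles of all tested genes.

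Complex I, which oxidises NADH, had 28 of its 34 subunit genes higher in the KO-labelled array at 4 h, with a median of 0.40, and 11 of 34 at 24 h, with a median of -0.12, where 45.6% and 48.5% of all tested genes were higher. After division by the array median the counts were 26 of 34 at 4 h and 4 of 34 at 24 h. In the WT-labelled series all 34 were higher at 24 h than at 8 h (median 0.52), against 29 of 34 in the KO-labelled series (median 0.18). Among the core subunits, Ndufv1 gave 3941, 4368, 4045 and 3254 in KO-labelled arrays over the 4 times, against 4374, 2301, 2541 and 4295 in WT-labelled arrays. It was 0.92 higher (log2) in the KO-labelled array at 4 h and 0.40 lower there at 24 h. Ndufs1 gave 3012, 2062, 1949.9 and 1996 in the KO-labelled series, against 2466, 2285, 2067 and 2564 in the WT-labelled series, with its highest signal in the KO-labelled 0 h array. Ndufs3 gave signals of 4909.9, 3612, 4019.7 and 4174 in the KO-labelled arrays at 0, 4, 8 and 24 h, against 4146, 2941, 3907 and 5077 in the WT-labelled arrays, and the 2 series overlapped. Of the accessory subunits, which surround the core, Ndufa9 gave 4975, 4748, 4184 and 4329 in KO-labelled arrays over the 4 times, against 3936, 3118, 2901 and 5098 in WT-labelled arrays. Ndufb8 gave 6414, 5527, 5811 and 6290.5 in the KO-labelled series, against 4539, 3379.5, 3585 and 6306 in the WT-labelled series, higher in the KO-labelled array by 0.50, 0.71 and 0.70 at 0, 4 and 8 h and level at 24 h.

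Ndufb1 had the highest mean difference over the 4 times, 0.99, and Ndufc1 followed among subunits most tissues express at 0.68. Ndufb1 gave signals of 877.9, 1203, 1416 and 1483 in the KO-labelled arrays at 0, 4, 8 and 24 h, against 348.2, 645.7, 484.9 and 1312 in the WT-labelled arrays, so that only the 24 h pair lay within 1.5-fold. Ndufc1, whose promoter with a YY1 match is shown above, gave 6867, 5891, 5629.6 and 6366 in KO-labelled arrays over the 4 times, against 4316, 2606, 3326 and 5898 in WT-labelled arrays. Its difference was largest at 4 h (1.18) and 0.11 at 24 h. Ndufv3, an accessory subunit of the flavoprotein part, gave 4457, 3439, 2954 and 6741 in the KO-labelled series, against 5245, 2643, 2869 and 3486 in the WT-labelled series, and it was 0.95 higher in the KO-labelled array at 24 h. Ndufa5 was the complex I subunit furthest below at 24 h, at -0.58, with signals of 3241, 2639, 2796 and 3122 in KO-labelled arrays, against 2751, 2409, 3037 and 4666 in WT-labelled arrays. Ndufa6 and Ndufa1 were 0.44 and 0.34 higher in the KO-labelled array at 24 h. Ndufa4 is named for complex I and now placed in complex IV, and it is counted here with complex I. It gave 9519, 8181, 7091 and 9695 in KO-labelled arrays over the 4 times, against 8511, 5160.2, 5206 and 8732 in WT-labelled arrays.

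The assembly factors of complex I had median differences of -0.23, 0.09, 0.14 and -0.29 at 0, 4, 8 and 24 h over 5 genes, the second of which was -0.04 after quantile normalization. Ndufaf4, whose promoter with an NRF1 match is shown above, gave 2420.2, 2807, 4545 and 4006 in KO-labelled arrays over the 4 times, against 3219, 6209.5, 6444 and 6706 in WT-labelled arrays. Within each time the KO-labelled array was the lower one, by 0.41, 1.15, 0.50 and 0.74 on the log2 scale. Its change common to both genotypes, 0.89 at 24 h (SE 0.25), had a limma adjusted p of 0.106. Ndufaf3 and Ndufaf7 were 0.98 and 1.03 higher in the KO-labelled array at 4 h and 0.16 and 0.19 lower at 24 h. Ndufaf5, with low signals of 437.8, 370.0, 343.9 and 315.2 in KO-labelled arrays, against 511.7, 348.5, 311.1 and 629.1 in WT-labelled arrays, was 1.00 lower in the KO-labelled array at 24 h. Ndufaf1 was lower in the KO-labelled array at all 4 times, by 0.40, 0.34, 0.11 and 0.29.

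Complex II, succinate dehydrogenase, is shared with the citric acid cycle. Sdha, its flavoprotein, gave 5749, 5389.6, 4010.1 and 4793 in the KO-labelled series, against 6325, 4724, 3974 and 6296 in the WT-labelled series. Sdhb, the iron-sulfur subunit, gave signals of 6178, 5513, 5922 and 7314 in the KO-labelled arrays at 0, 4, 8 and 24 h, against 5515, 4999, 5724 and 8050.1 in the WT-labelled arrays. Both stayed within 1.5-fold between genotypes at each time. The membrane anchor Sdhc gave 3836, 2594, 2268 and 2789 in KO-labelled arrays over the 4 times, against 2265, 1623, 1728 and 2431 in WT-labelled arrays. It was higher in the KO-labelled array at all 4 times, by 0.76, 0.68, 0.39 and 0.20. Its 2 tested probe sets gave -0.05 to 0.68 at 4 h. The other anchor, Sdhd, gave 4053, 2762, 2904 and 3638 in the KO-labelled series, against 2905, 2008, 2429.5 and 4282 in the WT-labelled series, with the KO-labelled array higher at 0, 4 and 8 h and 0.24 lower at 24 h. All 4 genes were lower at 4 h than at 0 h in both series.

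Complex III passes electrons from ubiquinol to cytochrome c. Its core proteins Uqcrc1 and Uqcrc2 had differences of 0.20, 0.26, -0.19 and -0.27 and of -0.35, 0.25, 0.31 and -0.11. Uqcrc1 gave signals of 7075, 7308, 6206 and 5615 in the KO-labelled arrays at 0, 4, 8 and 24 h, against 6165, 6084, 7084 and 6777 in the WT-labelled arrays. Uqcrc2 gave 6674, 7486, 7831 and 8133 in KO-labelled arrays over the 4 times, against 8486, 6278, 6313 and 8802 in WT-labelled arrays, and the series overlapped for both genes. The Rieske iron-sulfur protein Uqcrfs1 gave 4615, 5635, 5791 and 7461 in the KO-labelled series, against 5063, 5684, 6602 and 6734 in the WT-labelled series, with the 0 h array the lowest in each series. The small subunit Uqcrq gave signals of 5078, 6808, 8818 and 6728 in the KO-labelled arrays at 0, 4, 8 and 24 h, against 3207, 5620.2, 10214 and 9018 in the WT-labelled arrays, a span in which the WT-labelled 0 h array was lowest and the WT-labelled 8 h array highest. The 2 tested probe sets of Uqcrq gave genotype differences of -0.19 to 0.28 at 4 h and of -0.42 to 0.22 at 24 h. Uqcr11, another small subunit, gave 4808, 3168, 2999 and 2752 in KO-labelled arrays over the 4 times, against 3201, 1456, 1947 and 3879 in WT-labelled arrays, and was 1.12 higher in the KO-labelled array at 4 h and 0.50 lower there at 24 h.

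Complex IV, cytochrome c oxidase, is given here by 9 subunit genes without Ndufa4. It was the complex whose median difference stayed above 0 at 24 h, at 0.08, with 8 of 9 genes higher in the KO-labelled array. This sign flipped under both other scalings, with medians of -0.05 after quantile normalization and -0.19 after division by the array median. Cox4i1 gave 13590.0, 15659.6, 13909 and 11642 in the KO-labelled series, against 14116, 12386, 12033 and 10964 in the WT-labelled series. Cox5a gave signals of 12879, 13202, 14686 and 18255 in the KO-labelled arrays at 0, 4, 8 and 24 h, against 11778, 10961, 14281 and 18131 in the WT-labelled arrays, with the 24 h array the highest in each series. Cox5b gave 14920.1, 18226, 15027 and 18432 in KO-labelled arrays over the 4 times, against 16769, 12248, 12744 and 16207 in WT-labelled arrays, and Cox6c gave 11963, 12005, 11218 and 13505 in the KO-labelled series, against 11460.3, 9392, 10360.4 and 13361 in the WT-labelled series. With the probe sets used, all these genes differed by less than 1.5-fold between genotypes at each time. The 5 tested probe sets of Cox5b gave -0.19 to 0.75 at 4 h, and the 2 of Cox6c gave 0.35 to 0.59. Of the paired isoforms, Cox6a1, Cox7a2 and Cox8a had differences of 0.25, 0.27 and 0.57 at 4 h and of 0.31, 0.06 and 0.13 at 24 h.

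Cox7c and Cox7a2l ran the other way. Cox7c, a ubiquitous subunit, gave signals of 399.4, 272.4, 314.4 and 267.1 in the KO-labelled arrays at 0, 4, 8 and 24 h, against 1125, 518.5, 440.6 and 409.2 in the WT-labelled arrays, and it was lower in the KO-labelled array by 1.49, 0.93, 0.49 and 0.62. For Cox7c the 2 tested probe sets gave -0.93 to -0.82 at 4 h and -0.62 to -0.22 at 24 h. Cox7a2l, described as a factor of supercomplexes, gave 4678, 5034, 3616 and 4440.0 in KO-labelled arrays over the 4 times, against 9691, 7854, 4719 and 4549 in WT-labelled arrays. It was 1.05, 0.64 and 0.38 lower in the KO-labelled array at 0, 4 and 8 h, and the series met at 24 h, where the difference was -0.04. Its 3 probe sets gave -0.78 to -0.64 at 4 h.

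Complex V had small differences in most of its 17 subunit genes, with medians of 0.01, 0.29, 0.04 and -0.11 at 0, 4, 8 and 24 h (-0.03 at 8 h after division by the array median). The catalytic subunit Atp5b gave 16139, 17101, 17351 and 21667 in the KO-labelled series, against 13538, 17158, 19413 and 18512 in the WT-labelled series, and the alpha subunit Atp5a1 gave signals of 16012, 15902, 15068 and 16816 in the KO-labelled arrays at 0, 4, 8 and 24 h, against 13726, 12775, 13679 and 17005 in the WT-labelled arrays. The rotor subunit Atp5c1 gave 12819, 11683, 10726 and 13394 in KO-labelled arrays over the 4 times, against 12689, 7943, 8654 and 14543 in WT-labelled arrays, with the WT-labelled 4 and 8 h arrays the lowest of the 8. Its 2 tested probe sets gave genotype differences of -0.49 to 0.56 at 4 h. Atp5o, the OSCP subunit of the peripheral stalk, gave 10653, 9452, 8590.5 and 8162 in the KO-labelled series, against 7552, 5851, 7063 and 9042 in the WT-labelled series, 0.69 higher in the KO-labelled array at 4 h. Atp5k, shown above with NRF1 and GABP letters, gave signals of 9843, 9862, 9525 and 10215 in the KO-labelled arrays at 0, 4, 8 and 24 h, against 9341, 6618, 8302 and 11697 in the WT-labelled arrays, and Atp5d, of the rotor stalk, was 0.59 higher in the KO-labelled array at 24 h. For Atp5d the 2 tested probe sets gave 0.07 to 0.59 at 24 h.

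Subunit c of the membrane ring is made from 3 genes, Atp5g1, Atp5g2 and Atp5g3, which encode the same mature protein. Atp5g1 gave 5893, 5030.3, 5925 and 5107 in KO-labelled arrays over the 4 times, against 4382, 4806, 6394 and 9352 in WT-labelled arrays. At 24 h it was 0.87 lower in the KO-labelled array, where Atp5g2 was 0.26 lower and Atp5g3 0.08 higher. Atp5g2 gave 7870.0, 8197, 7662 and 8323 in the KO-labelled series, against 8359, 6624, 7432 and 9950.4 in the WT-labelled series, and Atp5g3 gave signals of 19677, 19688, 19604 and 23797 in the KO-labelled arrays at 0, 4, 8 and 24 h, against 19316, 18998, 22358 and 22479 in the WT-labelled arrays. The WT-labelled 24 h array was the highest of all 8 for Atp5g1 and Atp5g2, and the KO-labelled 24 h array for Atp5g3.

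**Figure D3:**
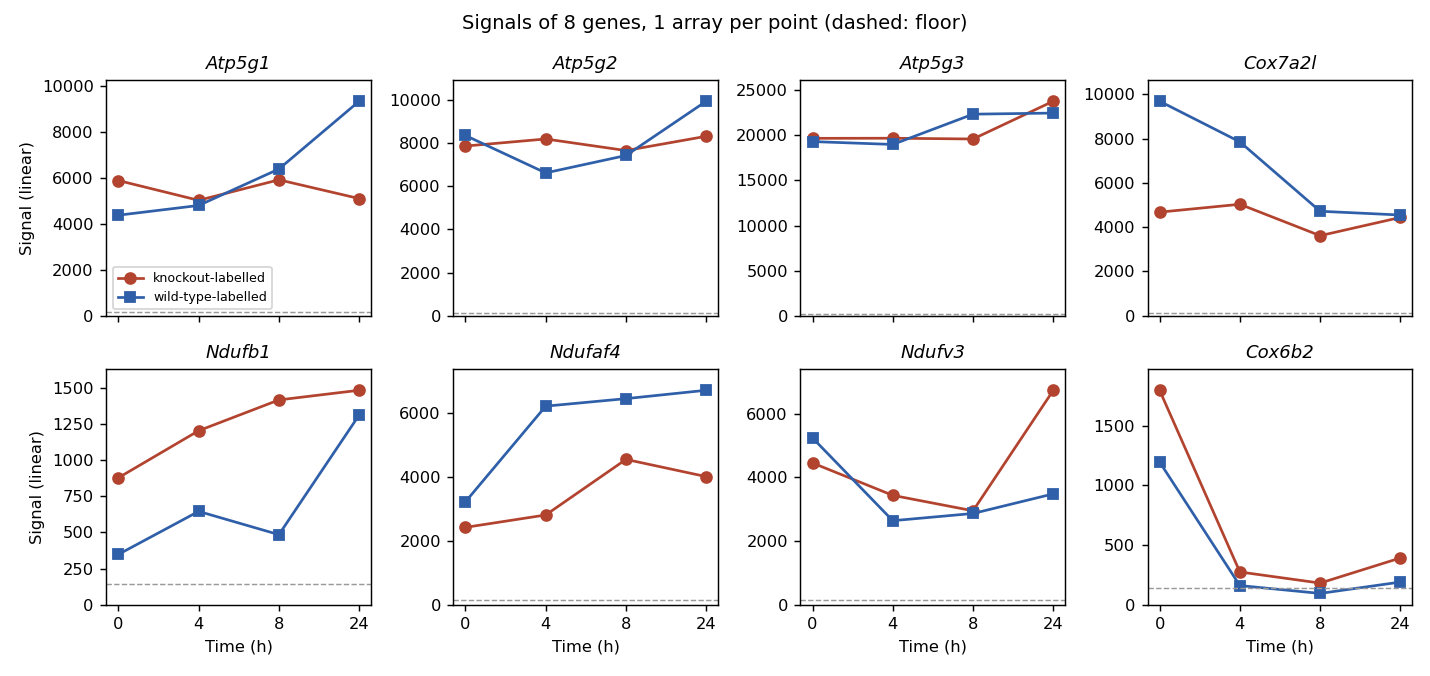
Deposited signal (vertical axis, linear, from 0) against time in hours for 8 genes, with 1 array per point, KO-labelled in red circles and WT-labelled in blue squares, and the floor of 141.88 as a dashed line. Atp5g1 ends at 5107 in the KO-labelled and 9352 in the WT-labelled array, and Cox6b2 is highest in both 0 h arrays.

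The response at 24 h relative to 0 h differed by at least 2-fold between genotypes for 2 genes higher in the KO-labelled series (15.4% of all tested genes) and 5 lower (13%), without a test. The largest were Ndufv3 at 1.19, Cox7a2l at 1.02 and, just inside 2-fold, Cox8c at 0.99, each on the log2 scale. Lowest were Atp5g1 at -1.30, Ndufb1 at -1.16 and Uqcrq at -1.09, followed by Uqcr11 at -1.08 and Ndufb9, an accessory subunit of complex I, at -1.05. At 1.5-fold, 7 genes were higher (27.4%) and 14 lower (23.9%). Each uses the same 0 h arrays as the changes given above.

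Of the 81 genes, 44 had several tested probe sets. These gave genotype differences of opposite sign for 13 genes at 4 h and 13 genes at 24 h, but opposite differences of 1.5-fold or more for 0 genes at 4 h and 1 at 24 h, Ndufs8, a core subunit of complex I, at -0.59 to 0.79.

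Other genes of mitochondrial respiration were measured beside the members. The 11 genes of electron carriers and coenzyme Q synthesis had median differences of 0.26, 0.48, 0.30 and -0.19 at 0, 4, 8 and 24 h, and the 15 citric acid cycle genes 0.25, 0.47, 0.13 and -0.27. Etfb, part of the flavoprotein that hands electrons from fatty acid oxidation to the chain, was 1.14, 2.03, 1.26 and -0.38. Atpif1, the inhibitor of ATP synthase, gave 5794, 4372, 3513 and 1915 in KO-labelled arrays over the 4 times, against 4774, 1269.7, 1156 and 1835 in WT-labelled arrays, 1.78 and 1.60 higher in the KO-labelled array at 4 and 8 h. The mitochondrial ribosome makes the subunits encoded in mitochondrial DNA. At 24 h, 22 of its 74 genes were at least 1.5-fold lower in the KO-labelled array (15% of all tested genes) and 0 higher (18.3%). Their medians were 0.25, 0.16, -0.02 and -0.42 at 0, 4, 8 and 24 h as deposited. The 24 h median was -0.33 after quantile normalization and -0.69 after division by the array median. Protein import genes and chaperones (22) had medians of 0.29, -0.37, -0.40 and -0.44, and 16 regulators of mitochondrial biogenesis -0.25, -0.35, -0.51 and -0.29. Among those regulators Tfam, which packages and transcribes mitochondrial DNA, was 0.45, 0.57, 0.54 and 1.02 lower in the KO-labelled arrays.

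In the test common to both genotypes at 24 h, Ttc19, an assembly factor of complex III, rose by 1.59 (SE 0.29, limma adjusted p = 0.0376), and Timm17a, of the inner membrane protein translocase, rose by 1.42 (SE 0.26, adjusted p = 0.0383). Of 17 tested glycolysis genes, 7 rose at 24 h (1.49% of all tested genes). The median change of the list was 1.39, where the 81 oxidative phosphorylation genes had 0.16. Hexokinase Hk2 rose by 2.82 (SE 0.42, limma adjusted p = 0.023), triosephosphate isomerase Tpi1 by 1.88 (SE 0.28, adjusted p = 0.023) and pyruvate kinase Pkm by 1.80 (SE 0.22, adjusted p = 0.0159). Between genotypes 14 of the 17 were at least 1.5-fold higher in the KO-labelled array at 24 h (18.3% of all tested genes). Their median difference was 1.11, where the members had -0.11. Mitosis genes, 14 in all, had median differences of 1.07, 2.45, 1.94 and -0.77 at 0, 4, 8 and 24 h, and their part in the member differences was not tested.

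**Figure D4:**
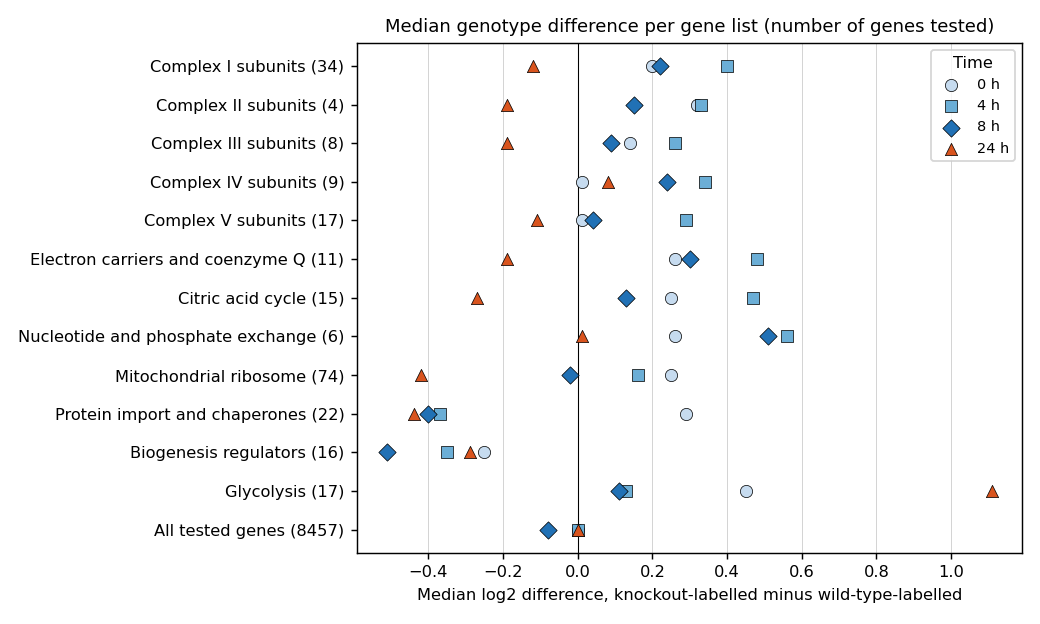
Median log2 difference, KO-labelled minus WT-labelled (horizontal axis), for the subunits of each complex, related gene lists and all tested genes (vertical axis, genes tested in parentheses), with a symbol for each time. Complexes I, II, III and V lie below 0 at 24 h and glycolysis lies at 1.11.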

How the data were processed

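The authors deposited 1 signal intensity per probe set and array (Affymetrix MOE430A_2.0, biotin-labelled cRNA), and the submitters' processing notes name GCOS 1.4 and MAS5. What each program did was not given in the sources used here. Of 22690 probe sets, 64 controls were left out, and genes were named through the platform annotation where a probe set had 1 symbol. Per-sample columns left unused numbered 0. The 40th percentile was taken on each array, and the median of these values over the arrays was the floor (141.88). Signals below the floor were set to it and log2 was taken. Those exceeding the floor on 2 or more arrays, 15062 in number, were fitted with limma 3.58.1 in R 4.3.3 (lmFit, eBayes with trend, time plus genotype as a block, 3 residual degrees of freedom, median prior degrees of freedom 3.88), with Benjamini-Hochberg adjustment over all of them, and the test was checked on simulated data. Genotype differences came from single arrays and are called by size, at 1.5-fold, and differences in response at 2-fold. Because samples carry no statement of separate animals or cultures, p-values measure only the spread between these arrays. The members and all gene lists were chosen with earlier results of these data known. Genes named are a core set, those passing the test, the 5 furthest in each direction by genotype at 24 h and on average, the 3 furthest in each direction by response, isoforms and assembly factors. Alternatives changed the scaling, floor, filter, probe set choice, thresholds and arrays. A planned gene is not reported here, and levels of different probe sets are not compared.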

Additional observations from a re-analysis of the deposited data

Results flagged for a closer look

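Ndufv3, an accessory subunit of complex I, changed side between the series. Its signal was 6741 at 24 h and 4457 at 0 h in KO-labelled arrays, against 3486 at 24 h and 5245 at 0 h in WT-labelled arrays. Each of these differences is at least 1.5-fold, in opposite directions, and the change in KO-labelled arrays minus that in WT-labelled arrays was 1.19 on the log2 scale. With 1 array for each genotype and time the difference was not tested, and no explanation is offered.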

How the results depend on the processing

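The number of genes changed in limma was 1 at 4, 8 and 24 h as reported. It was 0 at each of these times with no filter on low signals, and 0 at 4 h and 0 at 24 h with no replicate block (no genotype term), while at 8 h it stayed at 1. Raising the adjusted p threshold to 0.10 gave 2 at 8 h and 3 at 24 h. At 24 h, division of each array by its median gave 3 and the median of a gene's probe sets gave 2. Leaving out single arrays gave 0 to 1 at 4 h, 0 to 1 at 8 h and 0 to 2 at 24 h, and the lone array of a group is then assumed to vary like the others. Between 24 and 8 h the count was 0 in limma under each alternative run. No paired analysis beyond this block was possible because each genotype and time has 1 array.

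Genotype counts at 1.5-fold were 11, 23, 9 and 7 at 0, 4, 8 and 24 h, and a 2-fold threshold gave 3, 4, 1 and 1. At 24 h the count was 19 after division by the array median and 4 with the floor at the 60th percentile. The count at all 4 times, 0 as reported, was 1 with the floor at the 20th percentile, 2 without the 8 h pair and 3 without the 24 h pair. The difference in response gave 7 genes at 2-fold and 21 at 1.5-fold. Member medians moved by 0.1 or more in 12 cases, by less in 59, and reversed in 1, the KO-labelled 8 h change, which was 0.12 after division by the array median. At smaller sizes the sign also turned for the KO-labelled 4 h change and the WT-labelled 8 h change (0.04 and 0.08 on that scale) and for the KO-labelled 24 h change (-0.10 after quantile normalization). The Cox6b2 change kept its direction and its call in 28 alternatives over the 3 times and kept only its direction in 23, with 0 reversed. The number of arrays and signals near the floor limit what can be seen for the tissue isoforms.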
